A study of Mus musculus with 12 samples.

Results

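The genes described here are 8 solute carriers that return filtered amino acids from the forming urine to the blood in the kidney tubule: Slc3a1, Slc3a2, Slc7a7, Slc7a8, Slc7a9, Slc6a18, Slc6a19 and Slc1a1. They were taken by symbol from a table of read counts for 28991 genes in mouse kidney. All 8 were in the table and all 8 passed the filter on low counts that left 20370 genes for testing. The study asked how dichloroacetate (DCA), an inhibitor of pyruvate dehydrogenase kinase, bears on the kidney toxicity of cisplatin, a platinum cancer drug that is taken up by tubule cells.

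Kidneys came from male BALB/c mice, an inbred strain, at 8 weeks of age, with 3 mice in each of 4 groups. All injections were intraperitoneal. The saline group received saline each day for 6 days, and the dichloroacetate group received DCA at 250 mg/kg each day for 6 days. For the cisplatin group, 5 days of saline were followed by 1 injection of cisplatin at 20 mg/kg, and the mice were killed 24 h later. The combination group had 5 days of DCA at 250 mg/kg, then cisplatin at 20 mg/kg together with DCA, and was killed at the same interval. The labels name no engineered allele in any group.

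Amino acids cross the proximal tubule cell in 2 steps, through the brush border on the side of the urine and then through the basolateral membrane on the side of the blood. Several of the carriers are heteromers in which a heavy chain brings a light chain, the actual transporter, to the membrane. Slc3a1 (rBAT) is the heavy chain of the brush border carrier of cystine and dibasic amino acids and pairs with the light chain Slc7a9, and loss of either causes cystinuria. Slc3a2 (the CD98 heavy chain) is made in many cell types and pairs with several light chains, among them the basolateral carriers Slc7a7, which is lost in lysinuric protein intolerance, and Slc7a8. Slc6a19 carries neutral amino acids through the brush border and is lost in Hartnup disorder, Slc6a18 is a related carrier of neutral amino acids and glycine, and Slc1a1 carries glutamate and aspartate. Slc6a19 and Slc6a18 need the membrane protein collectrin (Cltrn) at the brush border.

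The 3 sequences below belong to the 2 heavy chains, which moved in opposite directions after cisplatin, and to Slc6a19, which fell the most of the 8. Each is the 250 bases before the start of a RefSeq transcript (GRCm38.p6), read 5′ to 3′ along the strand of the gene. Slc3a1 is on the plus strand at chr17:85028097-85028346, Slc3a2 on the minus strand at chr19:8713898-8714147 and Slc6a19 on the minus strand at chr13:73692637-73692886. Capitals mark matches to 6 motifs that were searched on both strands in the windows of 7 of the 8 genes, which are the HNF1 palindrome, its first part GTTAAT (which overlaps the palindrome), the HNF4 motif CAAAGTCCA, the ATF4-C/EBP composite TGATGNAA, the antioxidant response element TGACNNNGC and the AP-1 motif TGAGTCA.
Slc3a1: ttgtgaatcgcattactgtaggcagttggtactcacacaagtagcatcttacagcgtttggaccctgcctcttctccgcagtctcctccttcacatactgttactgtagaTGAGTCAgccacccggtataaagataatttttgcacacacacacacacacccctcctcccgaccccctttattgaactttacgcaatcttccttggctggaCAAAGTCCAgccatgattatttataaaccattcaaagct
Slc3a2: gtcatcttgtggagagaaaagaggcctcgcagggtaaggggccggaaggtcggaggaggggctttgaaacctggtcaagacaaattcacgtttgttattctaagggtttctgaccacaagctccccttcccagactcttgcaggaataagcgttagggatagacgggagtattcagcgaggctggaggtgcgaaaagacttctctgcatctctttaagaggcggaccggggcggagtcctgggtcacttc
Slc6a19: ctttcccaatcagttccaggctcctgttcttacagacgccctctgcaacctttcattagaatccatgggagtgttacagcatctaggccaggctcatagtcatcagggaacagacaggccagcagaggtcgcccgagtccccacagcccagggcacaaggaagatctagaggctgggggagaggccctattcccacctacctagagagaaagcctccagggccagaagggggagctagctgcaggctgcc
The Slc3a1 window held CAAAGTCCA beginning 39 bases before the start, letters found in 0.384% of 32851 windows of the same length, and TGAGTCA beginning 140 bases before the start, found in 4.46%. The windows of Slc3a2 and Slc6a19 shown here held none of the 6. Both lie inside the annotated spans of their genes (chr19:8706882-8723369 and chr13:73679745-73704865), away from the upstream ends. Sequence before those ends was not searched, so the lack of a match holds for these windows only. For the Slc3a1 and Slc3a2 windows, the bases just after the start were not found in a GENCODE transcript of the gene. Across 12 windows of the 7 genes, TGATGNAA occurred in 2 windows, both of Slc7a7, against 3.45% of all windows, and GTTAAT in 1, also of Slc7a7, against 6.43%. A match is a run of letters in a window and not a shown binding site.

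The genes lie on 5 chromosomes (GENCODE M21, build GRCm38). Slc6a18 (chr13:73661752-73678023) and Slc6a19 (chr13:73679745-73704865) are neighbours on the minus strand, 1721 bp apart. Slc7a7 (chr14:54369442-54417780) and Slc7a8 (chr14:54722209-54781946) share the minus strand of chromosome 14 and are separated by 304 kb. Slc3a1 is at chr17:85028376-85064236 on the plus strand and Slc7a9 at chr7:35448796-35466036 on the plus strand. Slc3a2 (chr19:8706882-8723369, minus strand) and Slc1a1 (chr19:28835049-28913960, plus strand) are far apart on chromosome 19.

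Library totals ran from 29505929 to 62237514 counts, and all 6 cisplatin-injected mice had lower totals than all 6 others (29505929 to 35925471 against 38236592 to 62237514). Levels are given as CPM, counts scaled to a common library total that was adjusted by the TMM factor, which corrects for differences in the make-up of the libraries. The factors were 1.02 to 1.15 in the 6 cisplatin-injected mice and 0.894 to 0.964 in the 6 others, so they move with cisplatin. Scaled by library totals alone, an alternative chosen after seeing the data, the median log2 fold change of all genes went from -0.01 to 0.26 for cisplatin against saline, from 0.01 to -0.11 for the combination against cisplatin, from 0.01 to 0.20 for the combination against DCA and from 0.01 to 0.16 for the combination against saline. Changes are therefore relative to the bulk of genes, and calls that turn on this choice are given with both values. A gene was called changed where the quasi-likelihood test of edgeR, adjusted over all genes tested by the Benjamini-Hochberg method, gave a p below 0.05, and "rose" and "fell" are used only of such genes. The replicates are described as biological, and the p-values measure only the spread among these mice. Whole kidney was sequenced, so fewer cells of a type and less RNA per cell cannot be told apart.

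Proximal tubule markers were abundant in saline kidneys. The 6 early proximal tubule markers, among them the glucose carrier Slc5a2 and the phosphate carrier Slc34a1, summed to between 6990 and 7772 CPM, and the 6 late ones, among them Slc7a13, to between 3071 and 3329 CPM.

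In saline kidneys the 8 genes differed widely in abundance. Divided by the length of exon in kilobases, Slc3a1 was highest at 267 ± 9.06 CPM per kb (SD, n = 3), ahead of Slc6a18 at 178 ± 4.28 and Slc6a19 at 82.8 ± 12.2 CPM per kb. Slc7a9 at 51.7 ± 2.17 and Slc7a7 at 46.9 ± 4.79 CPM per kb overlapped in their libraries, as did Slc3a2 at 31.9 ± 2.19 and Slc1a1 at 30.0 ± 0.969 CPM per kb. Slc7a8 was lowest at 9.63 ± 0.793 CPM per kb. The brush border heavy chain thus led the order, and the basolateral heavy chain stood near its lower end.

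**Figure D1:**
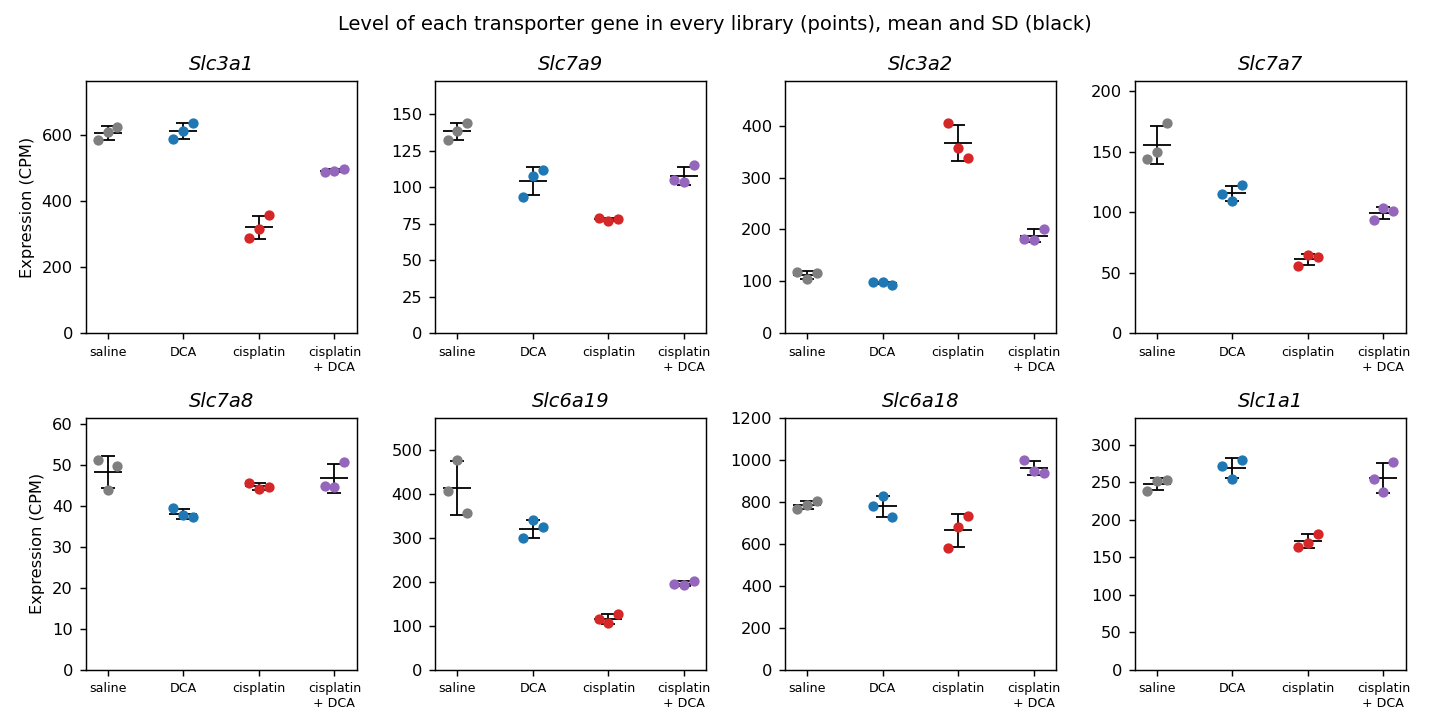
Levels of the 8 genes in each library, in TMM-scaled CPM (each panel has its own linear axis from 0), for the saline, dichloroacetate (DCA), cisplatin and combination groups. Points are single mice and black lines the mean and SD of 3. Slc3a2 is the gene with its highest levels after cisplatin (338 to 405 CPM), while Slc6a19 has its lowest there (106 to 127 CPM).

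Cisplatin without DCA lowered 6 of the 8 transporters and raised 1. The brush border carrier of neutral amino acids, Slc6a19, fell furthest, followed by the basolateral light chain Slc7a7 and by both subunits of the cystine carrier, Slc3a1 and Slc7a9. The heavy chain Slc3a2 rose more than 3-fold. Of all 20370 genes tested, 60.1% were called in this comparison, 29.7% higher and 30.4% lower, so that being called is common and the 6 falls of 8 are to be read against the 30.4%. With library totals alone 5 of the 8 fell and 2 rose, where 17.7% of all genes tested fell and 47.9% rose. Of all calls 73.1% were then higher in place of 49.4%. The median log2 fold change of the 8 was -0.68, against -0.01 over all genes tested.

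Slc3a1 stood at 583, 609.6 and 624 CPM in the 3 saline mice and at 289, 315 and 356 CPM in the 3 cisplatin mice. Every cisplatin mouse lay below every saline mouse. The fitted log2 fold change was -0.92 (SE 0.07, edgeR adjusted p = 6.9e-08). Its light chain Slc7a9, which does the transport, stood at 132, 138 and 144 CPM in saline mice and at 78.8, 77.04 and 78.1 CPM in cisplatin mice. It fell by 0.83 on the log2 scale (SE 0.07, edgeR adjusted p = 2.7e-07), again with no overlap.

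Slc3a2 behaved the other way. Its level was 117, 104 and 117 CPM in saline mice and 405, 357 and 338 CPM in cisplatin mice, and the groups were far apart. The log2 fold change was 1.70 (SE 0.08, edgeR adjusted p = 7.6e-10), a 3.26-fold rise, which placed Slc3a2 above 97.3% of all genes tested. Per kb of exon it moved from the sixth place among the 8 in saline mice to the third in cisplatin mice, at 104 ± 9.79 CPM per kb.

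Neither of the basolateral light chains that Slc3a2 carries to the membrane was called higher. Slc7a7 was at 144, 149.6 and 174 CPM in saline mice and 55.5, 64.1 and 62.7 CPM in cisplatin mice (log2 fold change -1.36, SE 0.08, edgeR adjusted p = 1.0e-08). Slc7a8 stood at 51.2, 43.7 and 49.7 CPM in saline mice and at 45.6, 44.0 and 44.5 CPM in cisplatin mice, and these ranges overlapped. Its log2 difference was -0.11 (95% interval -0.25 to 0.03, edgeR adjusted p = 0.17) and was not called, but with library totals alone it was 0.17 and called (edgeR adjusted p = 0.046). On the TMM scale Slc7a8 was the only 1 of the 8 for which the saline and cisplatin libraries overlapped, whereas the groups did not overlap for 64.8% of all genes tested.

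The carriers of neutral amino acids fell to very different extents. Slc6a19 was measured at 408, 479 and 357 CPM in saline mice and at 115, 106 and 127 CPM in cisplatin mice. The log2 fold change was -1.84 (SE 0.10, edgeR adjusted p = 3.4e-09), or a 3.57-fold lower level, and only 3.46% of all genes tested had a lower value. Its neighbour on chromosome 13, Slc6a18, was at 765, 788 and 802 CPM in saline and 581, 679 and 735 CPM in cisplatin mice (log2 fold change -0.24, SE 0.08, edgeR adjusted p = 0.014). That small fall rested on the scaling and on 1 mouse. With library totals alone the log2 difference was 0.04 (edgeR adjusted p = 0.67) and the levels were 737, 735 and 729.7 CPM in saline and 668, 771 and 819 CPM in cisplatin mice, which overlap. Without cisplatin replicate 1 the value was -0.13 (edgeR adjusted p = 0.10). The carrier of acidic amino acids, Slc1a1, went from 239, 252 and 253 CPM to 163, 168 and 182 CPM, with a log2 fold change of -0.53 (SE 0.07, edgeR adjusted p = 1.0e-05).

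**Figure D2:**
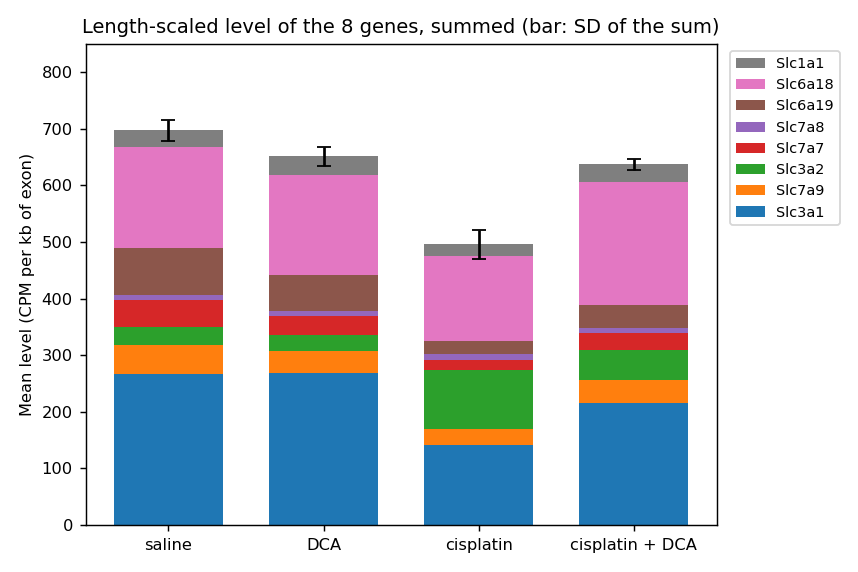
Summed level of the 8 genes per kilobase of exon in each group, stacked by gene (mean of 3 mice, in TMM-scaled CPM per kb, axis from 0), with the SD of the sum as error bar. The sum is 697 in saline, 651 with dichloroacetate (DCA), 496 with cisplatin and 637 with the combination, and the Slc3a2 segment is tallest after cisplatin.

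The make-up of the 8 transcripts therefore differed between groups. Their summed level was 697 ± 17.9 CPM per kb in saline mice, 651 ± 16.3 with DCA, 496 ± 26.2 with cisplatin and 637 ± 8.91 with the combination (SD, n = 3). Slc3a2 made up 4.58% ± 0.392 of this sum in saline mice and 21.1% ± 3.06 in cisplatin mice. In the combination group its share was 8.33% ± 0.451. Slc6a19 made up 11.9% ± 1.72 of the sum in saline mice, 4.67% ± 0.321 in cisplatin mice and 6.15% ± 0.0864 in the combination group. After cisplatin Slc6a18 and Slc3a1 led the order together, at 151 ± 17.7 and 141 ± 15.0 CPM per kb with overlapping libraries.

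DCA alone was followed by small differences. The light chains Slc7a7 and Slc7a9 fell and no transporter rose, so 2 of the 8 were called, where 0.309% of all genes tested were called (0.128% higher and 0.182% lower). At an unadjusted edgeR p below 0.05 the number was 5 of 8, against 11.9% of all genes tested, and DESeq2 called 4 of 8 after adjustment, against 2.17% of the genes it adjusted. With library totals alone edgeR called 3 of 8, all lower, where 0.511% of all genes tested were called lower and 0.147% higher. Of all calls 22.4% were then higher in place of 41.3%. Slc7a7 stood at 115, 109 and 122 CPM with DCA, below all 3 saline mice, and its log2 fold change was -0.43 (SE 0.08, edgeR adjusted p = 0.041). Slc7a9 stood at 93.5, 108 and 112 CPM, also below all saline mice, with a log2 fold change of -0.41 (SE 0.07, edgeR adjusted p = 0.031). Both adjusted p-values lie close to the threshold. Fitted on the saline and DCA mice alone, neither gene was called (edgeR adjusted p = 0.20 for each), and leaving out single libraries ended the Slc7a7 call in 11 of 12 fits, all but the one without cisplatin replicate 1. The Slc7a9 call was lost in 5 of 12, namely without saline replicate 1 or 2, dichloroacetate replicate 1, cisplatin replicate 2 or combination replicate 1.

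The third light chain, Slc7a8, was measured at 39.4, 37.6 and 37.1 CPM with DCA, also below every saline mouse. Its log2 difference of -0.34 (SE 0.07) was not called by edgeR (adjusted p = 0.051). Slc6a19 was at 300.0, 341 and 324 CPM, below the saline range of 357 to 479 CPM, with a log2 difference of -0.37 (SE 0.09, edgeR adjusted p = 0.14). The heavy chains gave log2 differences of -0.22 for Slc3a2 (95% interval -0.38 to -0.06, edgeR adjusted p = 0.25) and 0.01 for Slc3a1 (95% interval -0.13 to 0.16, edgeR adjusted p = 0.97). Slc3a1 (586, 611 and 636 CPM) and Slc6a18 (781, 830.2 and 730.1 CPM) were the only 2 of the 8 for which DCA and saline libraries overlapped, where the groups did not overlap for 16% of all genes tested. Slc1a1 was at 272, 254 and 280.1 CPM, with a log2 difference of 0.12 that was not called (edgeR adjusted p = 0.52).

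In cisplatin-injected mice, those given DCA had higher levels of 6 of the 8 transporters and a lower level of Slc3a2. Each of these 7 differences ran opposite to the sign of the cisplatin response without DCA, but the cisplatin mice enter both comparisons, so that the signs are not independent. For Slc6a18 this held on the TMM scale only. With library totals alone its values were 0.036 after cisplatin and 0.41 for the combination against cisplatin. Across all genes tested 31.6% were called between the combination and cisplatin alone, 18.1% higher and 13.5% lower. Scaling by library totals alone again called 6 transporters higher and 1 lower, where 11.4% of all genes tested were higher and 25.2% lower. Of all calls 31.1% were then higher in place of 57.3%. The median log2 fold change of the 8 was 0.56, against 0.01 over all genes tested.

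For the cystine carrier, Slc3a1 was measured at 487, 491 and 495 CPM in the combination group and Slc7a9 at 105, 103 and 115 CPM. Both ranges lay above those of the cisplatin group. Slc3a1 rose by 0.62 on the log2 scale (SE 0.07, edgeR adjusted p = 2.5e-05) and Slc7a9 by 0.47 (SE 0.07, edgeR adjusted p = 2.2e-04). Slc3a2 stood at 182, 179 and 202 CPM, below all cisplatin mice and above all saline mice, and fell by 0.97 relative to cisplatin (SE 0.07, edgeR adjusted p = 3.0e-06). Its light chain Slc7a7 was at 93.8, 103 and 101 CPM, a log2 fold change of 0.71 (SE 0.08, edgeR adjusted p = 3.3e-05). Slc7a8, at 44.8, 44.5 and 50.7 CPM, was not called (log2 difference 0.06, 95% interval -0.08 to 0.21, edgeR adjusted p = 0.53), and was the only 1 of the 8 whose combination and cisplatin libraries overlapped, where 46.8% of all genes tested did not overlap.

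Among the remaining carriers, Slc6a19 was at 195, 192 and 202 CPM, a log2 fold change of 0.76 (SE 0.10, edgeR adjusted p = 6.7e-05). It remained far below the saline range. Slc6a18 reached 1001, 949 and 938 CPM, with a log2 fold change of 0.53 (SE 0.08, edgeR adjusted p = 1.5e-04), and every combination mouse was above every mouse of the other 3 groups. Slc1a1 was at 254, 236 and 277 CPM, above all cisplatin mice and overlapping both groups not given cisplatin, with a log2 fold change of 0.58 (SE 0.07, edgeR adjusted p = 3.3e-05).

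Set against saline, the combination group left 2 transporters higher and 4 lower, where 40.2% of all genes tested were called (20.6% higher and 19.6% lower). By library totals alone 3 were higher and 4 lower, where 36.7% of all genes tested were higher and 12.3% lower. Of all calls 74.9% were then higher in place of 51.3%. Slc6a19 was lowest relative to saline at -1.08 on the log2 scale (SE 0.10, edgeR adjusted p = 1.4e-06), followed by Slc7a7 at -0.65, Slc7a9 at -0.36 and Slc3a1 at -0.30. Slc3a2 was higher by 0.74 (SE 0.07, edgeR adjusted p = 5.2e-06) and Slc6a18 by 0.29 (SE 0.08, edgeR adjusted p = 0.0071). The 2 transporters that were not called were Slc1a1, at 0.05 (95% interval -0.10 to 0.19; 0.19 and called with library totals alone, edgeR adjusted p = 0.0092), and Slc7a8, at -0.05 (95% interval -0.19 to 0.10). Libraries of the combination and saline groups overlapped for these 2 genes alone, where 50.3% of all genes tested did not overlap.

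**Figure D3:**
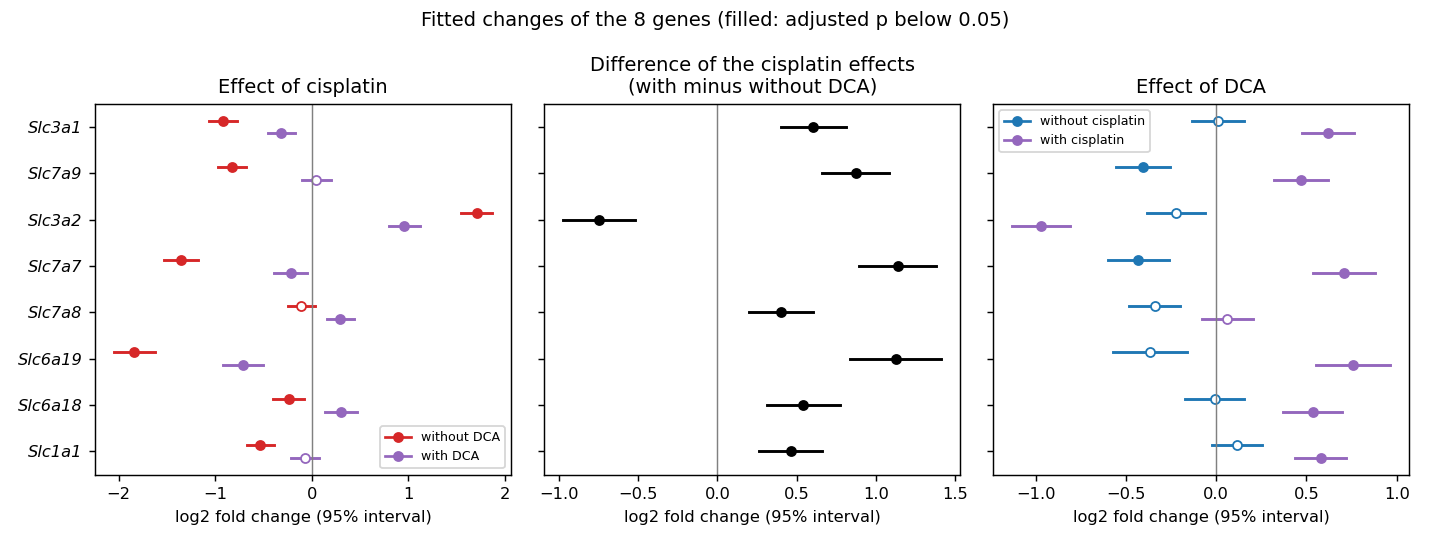
Fitted log2 fold changes with 95% intervals for the 8 genes: the cisplatin effect without and with dichloroacetate (DCA), the difference between these effects, and the DCA effect without and with cisplatin. Filled points were called. Slc3a2 is the only gene with a negative difference (-0.75), and the 7 others lie between 0.40 and 1.14.

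In mice given DCA, cisplatin was followed by 3 rises and 3 falls among the 8 (40.7% of all genes tested were called, 21.5% higher and 19.2% lower). On library totals alone 4 rose and 1 fell, where 41.5% of all genes tested rose and 10.9% fell. Of all calls 79.2% were then higher in place of 52.8%. Slc3a2 rose by 0.96 (SE 0.08, edgeR adjusted p = 4.5e-07), Slc6a18 by 0.30 (SE 0.08, edgeR adjusted p = 0.0058) and Slc7a8 by 0.29 (SE 0.07, edgeR adjusted p = 0.0030). Slc6a19 changed by -0.71 (SE 0.09, edgeR adjusted p = 5.2e-05), Slc3a1 by -0.31 (SE 0.07, edgeR adjusted p = 0.0020) and Slc7a7 by -0.22 (SE 0.08, edgeR adjusted p = 0.043). The Slc7a7 call was lost in 8 of the 12 fits that left out 1 library, those without saline replicate 2, dichloroacetate replicate 1 or 3, cisplatin replicate 2 or 3, or any 1 of the 3 combination replicates, with values of -0.26 to -0.18 over the 12. With library totals alone Slc7a7 (-0.025, edgeR adjusted p = 0.78) and Slc3a1 (-0.12, edgeR adjusted p = 0.073) were not called. Slc7a9 (0.05, 95% interval -0.10 to 0.20) and Slc1a1 (-0.07, 95% interval -0.21 to 0.07) were not called, although Slc7a9 was with library totals alone (0.24, edgeR adjusted p = 0.0040), and for both the libraries of the 2 groups overlapped, where 52.8% of all genes tested did not.

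The response to cisplatin differed with DCA for all 8 transporters when the difference itself was tested, as an interaction on the log2 scale. Of all genes tested 18.6% were called for the interaction, 11.4% positive and 7.15% negative. The 7 transporters other than Slc3a2 had positive values, led by Slc7a7 at 1.14 (SE 0.11, edgeR adjusted p = 7.0e-05), Slc6a19 at 1.12 (SE 0.13, edgeR adjusted p = 1.6e-04) and Slc7a9 at 0.87 (SE 0.10, edgeR adjusted p = 1.1e-04). The cisplatin responses of Slc7a7 were -1.36 without DCA and -0.22 with it, and those of Slc7a9 were -0.83 and 0.05. For both genes, and for Slc7a8, Slc6a19 and Slc3a2, the DCA mice, the controls of the second response, stood below the saline mice. For Slc1a1 they stood above, and for Slc3a1 and Slc6a18 the 2 groups overlapped. For Slc7a8 the DCA mice differed from saline by -0.34. Its combination mice differed from cisplatin by 0.06 and from saline by -0.05, and none of these 3 differences was called. Slc3a1 gave 0.61, Slc6a18 0.54, Slc1a1 0.46 and Slc7a8 0.40, the last with SE 0.09 (edgeR adjusted p = 0.0091). Slc3a2 gave -0.75 (SE 0.11, edgeR adjusted p = 4.9e-04), a smaller rise with DCA than without. All 8 were called in each of the 12 fits that left out 1 library and, with the same signs, with library totals alone. Under that scaling 8.40% of all genes tested were called positive and 11.7% negative, and 41.8% of all calls were positive in place of 61.5%.

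Ratios of 2 transcripts within a library do not depend on how the libraries are scaled. For 5 such ratios the cisplatin label was permuted within mice with and without DCA (exact 2-sided permutation test, 400 arrangements, smallest possible p 0.005, adjusted over the 5). The log2 ratio of Slc3a2 to its light chain Slc7a7 was -0.46 ± 0.15 in saline, -0.26 ± 0.12 with DCA, 2.59 ± 0.24 with cisplatin and 0.92 ± 0.11 with the combination (SD, n = 3). Over both strata it was higher by 2.11 in cisplatin-injected mice (exact permutation p = 0.005, adjusted p = 0.00625), with all 6 of them above all 6 others. The ratio of Slc3a2 to Slc7a8 was higher by 1.24 with the same exact permutation p. In mice without DCA these differences were 3.06 and 1.81, and in mice given DCA 1.17 and 0.66. Within 1 stratum 3 mice against 3 cannot give an exact p below 0.1.

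The Slc6a19 to Slc6a18 ratio was -0.93 ± 0.23 in saline, -1.28 ± 0.10 with DCA, -2.52 ± 0.17 with cisplatin and -2.29 ± 0.07 with the combination. It was changed by -1.30 in cisplatin-injected mice (exact permutation p = 0.005, adjusted p = 0.00625), with -1.59 in mice without DCA and -1.02 in mice given it. The 2 neighbouring genes thus changed to unequal degrees in both strata. The ratio of Slc6a19 to its partner Cltrn changed by -0.96 with the same exact permutation p. The ratio of Slc3a1 to Slc7a9, the 2 subunits of the cystine carrier, moved least, by -0.23 (exact permutation p = 0.02, adjusted p = 0.02). Within strata it changed by -0.10 without DCA, where the saline range of 2.11 to 2.14 lay inside the cisplatin range of 1.87 to 2.19, and by -0.36 with DCA, where the ratio of DCA mice was the highest of the 4 groups (2.50 to 2.65).

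**Figure D4:**
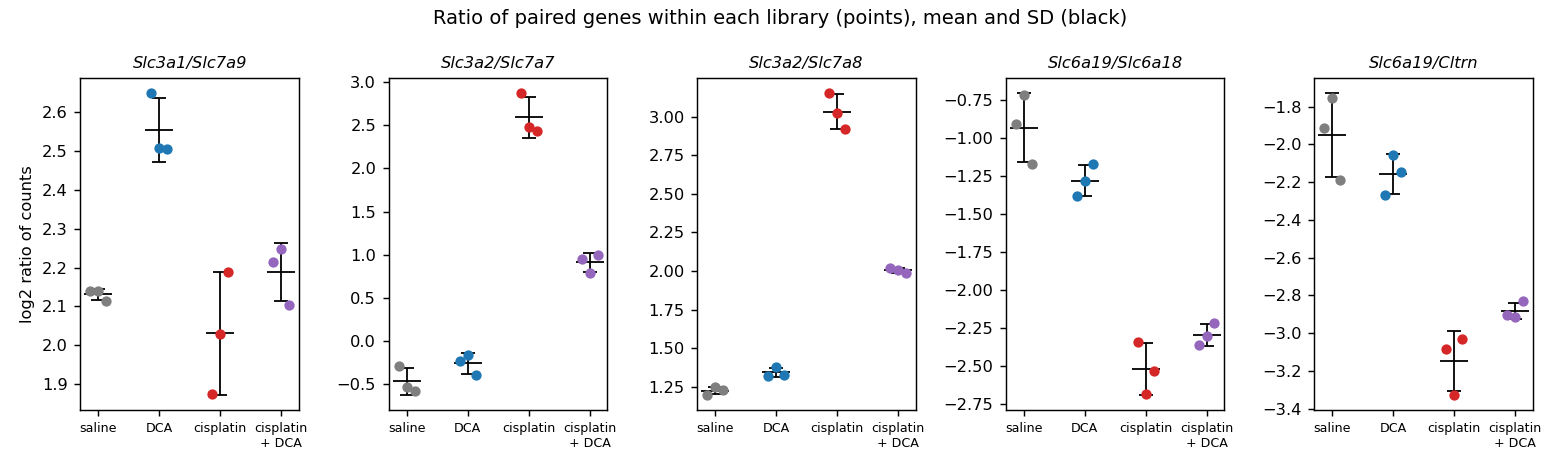
Log2 ratios of the counts of 2 transcripts in each library for the saline, dichloroacetate (DCA), cisplatin and combination groups. Points are single mice and black lines the mean and SD of 3. The Slc3a2 to Slc7a7 ratio is highest after cisplatin (2.43 to 2.87), and the Slc3a1 to Slc7a9 ratio is highest with DCA alone (2.50 to 2.65).

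Slc3a1, Slc7a7 and Slc1a1 share exon sequence with a gene on the opposite strand. The counting is not stated to use strand, so reads from such a pair cannot be told apart where they overlap. Slc3a1 shares 601 bp, 26.5% of its exon length, with Prepl, which stood at 289 CPM in saline and 170 CPM in cisplatin mice and changed by -0.77 (edgeR adjusted p = 7.8e-08). Slc7a7 shares 232 bp, 6.998% of its exon length, with Oxa1l, which changed by -0.40 after cisplatin and by -0.06 with DCA (not called, edgeR adjusted p = 0.76). Slc1a1 shares 2631 bp, 31.9% of its exon length, with 4430402I18Rik, which was at 27.8 CPM in saline mice and was not called for cisplatin (log2 difference -0.13, edgeR adjusted p = 0.16). The part of these shared stretches in the 3 results was not tested.

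Of 31 other amino acid transporters in the table, 15 fell after cisplatin, 4 rose and 12 were not called, with a median log2 fold change of -0.29. The share called in either direction is near the 60.1% of all genes tested. Falls outnumbered rises in this list, whereas 30.4% of all genes tested fell and 29.7% rose. With library totals alone 17.7% of all genes tested fell and 47.9% rose, and this list was not counted under that scaling. The list median is similar in size to the shift of the median gene between the scalings (-0.01 to 0.26). Slc7a13, a light chain that also pairs with Slc3a1, fell from 936 ± 85.0 to 249 ± 34.1 CPM (log2 fold change -1.91, edgeR adjusted p = 2.2e-09). The proline carriers Slc6a20b (-1.77) and Slc6a20a (-1.25), the proton-coupled carrier Slc36a1 (-1.20) and the glutamate carrier Slc1a2 (-2.34, from only 10.1 ± 1.32 CPM) fell too. The 4 that rose were the glycine carrier Slc6a9, by 1.17, and Slc7a11, Slc38a2 and Slc7a6, which are named here after their values were seen. Slc7a11 and Slc7a6 are further light chains that pair with Slc3a2, as is Slc7a10, which was not called (log2 difference -0.07, edgeR adjusted p = 0.72). The light chain Slc7a5 was not analysed here. Slc7a11 was at 4.68 ± 0.463 CPM in saline and 7.84 ± 0.618 CPM in cisplatin mice (log2 fold change 0.75, edgeR adjusted p = 3.5e-05), and Slc7a6 at 4.12 ± 0.366 and 5.34 ± 0.396 CPM (log2 fold change 0.38, edgeR adjusted p = 0.011). Slc38a2, a sodium-coupled carrier of neutral amino acids, had a log2 fold change of 0.58 (edgeR adjusted p = 0.013).

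With DCA added to cisplatin, 13 of these 31 were higher than with cisplatin alone, 1 was lower and 17 were not called (median log2 fold change 0.30), where 18.1% of all genes tested were higher and 13.5% lower. Slc6a20b rose by 0.99, the taurine carrier Slc6a6 by 0.89, Slc1a2 by 0.75, Slc7a13 by 0.62 and the peptide carrier Slc15a2 by 0.60. The 1 that fell was Slc7a11, with a log2 fold change of -0.45 (edgeR adjusted p = 0.0056). With DCA alone edgeR called 0 of the 31 after adjustment and DESeq2 also 0, and 3 had an unadjusted edgeR p below 0.05. The shares over all genes tested were 0.309% called by edgeR and 11.9% at that unadjusted p. DESeq2 called 2.17% of the genes it adjusted.

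Of 10 partners and brush border peptidases, 7 fell after cisplatin, 2 rose and 1 was not called (median log2 fold change -0.77), where 30.4% of all genes tested fell and 29.7% rose. Collectrin (Cltrn) had 1592 ± 51.6 CPM in saline and 1025 ± 45.5 CPM in cisplatin mice (log2 fold change -0.64, edgeR adjusted p = 5.9e-08), and stood at 1447 ± 9.57 CPM in the combination group. The scaffold Pdzk1 changed by -1.21 and the peptidases Mme by -1.21, Ggt1 by -1.19, Enpep by -1.08 and Anpep by -0.91. Arl6ip5, a membrane protein known to bind Slc1a1, was among the 2 that rose, by 0.70 on the log2 scale (edgeR adjusted p = 1.3e-07). In the combination group 7 of the 10 were higher than with cisplatin alone, 1 was lower and 2 were not called (median 0.40). Of all genes tested 18.1% were higher and 13.5% lower in this comparison. Arl6ip5 was the 1 that was lower, by -0.36.

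Slc3a2 is a known target of ATF4, the transcription factor of the response to amino acid shortage and protein folding stress. Of 14 genes listed for that response, 12 rose after cisplatin, 1 fell and 1 was not called, where 29.7% of all genes tested rose and 30.4% fell, and the median log2 fold change was 1.56. The asparagine synthetase gene Asns rose by 1.95, the folate enzyme gene Mthfd2 by 2.22, the kinase regulator Trib3 by 1.85 and the transcription factor genes Cebpb by 2.22 and Atf3 by 3.99. The 1 that fell was Shmt2, a mitochondrial serine enzyme gene, by -0.88, and the serine synthesis gene Phgdh was not called (0.20, edgeR adjusted p = 0.16). Both are named after their values were seen. In the combination group 10 of the 14 were lower than with cisplatin alone and 4 were not called (median -0.54), where 13.5% of all genes tested were lower, with Atf3 at -2.09, Cebpb at -1.12 and Trib3 at -1.02. With DCA alone edgeR called 0 of the 14 after adjustment and DESeq2 1, and 6 had an unadjusted edgeR p below 0.05. The shares over all genes tested were 0.309% called by edgeR and 11.9% at that unadjusted p. DESeq2 called 2.17% of the genes it adjusted. The part of ATF4 in the Slc3a2 result was not tested.

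**Figure D5:**
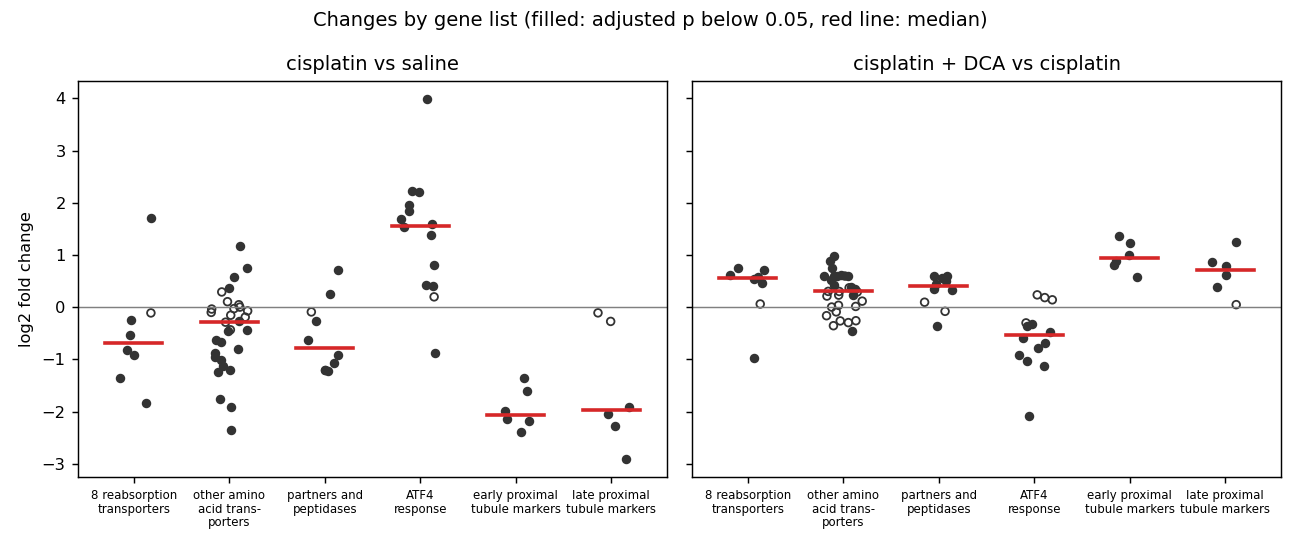
Log2 fold changes of single genes after cisplatin and for the combination against cisplatin, by list: the 8 transporters, other amino acid transporters, partners and peptidases, ATF4 response genes, and early and late proximal tubule markers. Each point is a gene (filled where called) and each red line the median of its list. After cisplatin the medians run from -2.06 (early proximal tubule) to 1.56 (ATF4 response).

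Markers of the cells that hold these transporters moved in the same comparisons. All 6 early proximal tubule markers fell after cisplatin (median log2 fold change -2.06), where 30.4% of all genes tested fell. Their summed levels were 6990 to 7772 CPM in saline, 6193 to 7009 with DCA, 1679 to 2043 with cisplatin and 3196 to 3513 with the combination. Of 6 late markers 4 fell and 2 were not called (median -1.97), with sums of 3071 to 3329, 3652 to 4039, 660 to 867 and 1268 to 1348 CPM in the same order. No defining marker of either list was at 0 in a group. All 6 early and 5 of the 6 late markers were higher with the combination than with cisplatin alone, where 18.1% of all genes tested were higher. Slc34a1 stood at 3724 ± 216 CPM in saline and 848 ± 60.5 CPM in cisplatin mice, and its log2 fold change of -2.13 was larger in size than that of each of the 8 transporters. The part of these markers in the transporter results was not tested.

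Other markers also fell after cisplatin, where 60.1% of all genes tested were called and 30.4% fell: 4 of 4 of the distal convoluted tubule, 3 of 4 of the thick ascending limb (1 rose), 4 of 5 of the collecting duct, 3 of 4 of podocytes, 4 of 5 of endothelium and 2 of 5 of fibroblasts and smooth muscle, of which DESeq2 called 0 of 5. Of 6 macrophage markers 2 fell and 1 rose (DESeq2 called 2 in all), and of 3 tested lymphocyte markers 0 were called by edgeR or by DESeq2, with 0 at an unadjusted edgeR p below 0.05. In the combination against cisplatin, these lists had 2 rises in the distal convoluted tubule, 2 in the collecting duct, 1 fall in the thick ascending limb and 1 fall in macrophages. Of all genes tested 18.1% rose and 13.5% fell there.

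For each transporter the genes with the most similar pattern were found by Pearson's r of log2 CPM over the 12 libraries among 19823 genes with a symbol. The libraries fall into the 4 groups, so r mainly describes a shared order of group means, and it is given without a p. Slc3a2 was most like the early response gene Junb (r = 0.997, with 7.78, 6.32, 64.8 and 21.6 CPM in saline, DCA, cisplatin and combination mice) and the alanyl-tRNA synthetase gene Aars (r = 0.995). Slc3a1 was most like the thyroid hormone receptor gene Thrb (r = 0.997, with 36.6, 39.9, 5.92 and 18.6 CPM) and its overlapping neighbour Prepl (r = 0.997). Slc6a19 was nearest to the fructose carrier Slc2a5 (r = 0.994) and Plekha6 (r = 0.991). Slc1a1 was nearest to the organic anion carrier Slc22a6 (r = 0.986) and Chst11 (r = 0.980), and Slc7a9 to Tmem8 (r = 0.976) and the organic anion carrier Slc22a8 (r = 0.967). Slc7a7 came closest to D330041H03Rik (r = 0.985) and Evc (r = 0.982). Slc6a18, with its maximum in the combination group, came closest to Atxn10 (r = 0.960) and the isocitrate dehydrogenase gene Idh1 (r = 0.945). Slc7a8 had the loosest matches, Cdhr5 (r = 0.919) and 4930550C14Rik (r = 0.874).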

How the data were processed

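Kidney RNA of 12 mice, 3 per group, was sequenced after preparation with a TruSeq RNA kit, per the labels' protocols. The authors deposited whole-number counts of reads per Ensembl gene, 1 column per library. Per the submitters' processing notes, the tools were DESeq, HTSeq, Cufflinks, TopHat, bedtools and Trimmomatic, without versions or roles, on build mm10. Whether counting used strand is not given. A deposited table of normalised values was not used. Of 28991 identifiers, 27955 were matched to a symbol in GENCODE M21. No line lacked a gene.

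Library totals were 29505929 to 62237514 counts. Replicate pairs differed by 4.40 to 26.3 chi-square units per degree of freedom, so each library was kept as 1 sample. The quasi-likelihood test of edgeR 4.0.16 (R 4.3.3) was fitted to all 12 libraries with TMM scaling and a mean per group (8 residual degrees of freedom, common biological coefficient of variation 0.092), on 20370 genes left by filterByExpr. Tests were 2-sided, with Benjamini-Hochberg adjustment over all genes tested and calls below 0.05. SE is the log2 fold change over the square root of F. CPM is TMM-adjusted, and likeness used log2 CPM with a prior count of 2. Pair ratios added 0.5 to each count. The scripts were tested on simulated data.

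The 8 genes, the gene lists and the rules were chosen with earlier results of these data known. From each list at most the 6 called genes with the largest log2 fold change per comparison and at least 1 CPM in the higher group were eligible for naming, and for likeness the 2 genes with the highest r. Of 115 list entries 2 (Slc7a5 and Dpep1) were not analysed here, and Cd3e and Ms4a1 were left out of tests for low counts. Values of 1 further list gene are not reported here. Promoter sequences are from RefSeq, for 7 of the 8 genes. Alternatives were RLE scaling, DESeq2 1.42.0, no filter, a replicate block, 2 groups only and leaving out each library, and, chosen after seeing the data, library totals without the TMM factor. For ratios they were a pseudocount of 0, single strata and leaving out each library.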

Additional observations from a re-analysis of the deposited data

Results flagged for a closer look

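The response to cisplatin with DCA minus that without it passed the test of the difference for all 8 transporters (edgeR, adjusted over all genes tested, where 18.6% of genes were called). The log2 values were 0.61 for Slc3a1, -0.75 for Slc3a2, 1.14 for Slc7a7, 0.40 for Slc7a8, 0.87 for Slc7a9, 0.54 for Slc6a18, 1.12 for Slc6a19 and 0.46 for Slc1a1. Slc7a8, Slc6a18 and Slc7a9 had cisplatin responses of opposite sign in the 2 settings. They were -0.11 (not called) without and 0.29 with DCA for Slc7a8, and -0.24 and 0.30 for Slc6a18. For Slc7a9 they were -0.83 and 0.05, the latter not called and of either sign when 1 library was left out (-0.026 to 0.10). For Slc7a8 the DCA mice, the controls of the second response, stood at -0.34 against saline and the combination mice at -0.05, neither called. With library totals alone in place of TMM scaling Slc7a8 (0.17 and 0.48) and Slc6a18 (0.036 and 0.49) had positive values in each setting. Slc7a9 then had -0.55 without and 0.24 with DCA, both called.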

How the results depend on the processing

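The counts for DCA against saline were the least settled. The main count was 63 genes, with 336 by DESeq2, 119 without the filter, 117 with the replicate block, 15 with only the 2 groups fitted, 134 with library totals alone (chosen after seeing the data), and 15 to 126 with 1 library left out. Of the 8 transporters 2 were called, with 1 under RLE scaling, 4 by DESeq2, 3 without the filter, 3 with the replicate block, 3 with library totals alone, 0 with only the 2 groups fitted and 0 to 2 with 1 library left out. The cause was not tested, other than that the 2-group fit has fewer libraries. In the 5 other comparisons the count of transporters called was the same under RLE scaling, DESeq2, no filter, the replicate block and, outside the interaction, the 2-group fit, and with 1 library left out it was 6 to 8 for cisplatin against saline and 5 to 6 for the combination against DCA, and equal to the main count in the 3 others. Values that were not called turned sign when 1 library was left out: DCA against saline, -0.017 to 0.042 for Slc3a1 and -0.055 to 0.038 for Slc6a18. For Slc7a8 they ran from -0.028 to 0.097 in the combination against cisplatin and from -0.11 to 8.9e-06 against saline. For Slc7a9 in the combination against DCA they ran from -0.026 to 0.10, and for Slc1a1 in the combination against saline from -0.020 to 0.10. Library totals alone in place of TMM scaling turned the sign of 6 values: Slc6a18 (0.036) and Slc7a8 (0.17, called) after cisplatin, Slc3a1 with DCA (-0.030), Slc7a8 in the combination against cisplatin (-0.066) and against saline (0.10), and Slc1a1 in the combination against DCA (0.12). The transporters called then numbered 5 for the combination against DCA and 7 against saline, and the main count in the other 3 comparisons with cisplatin-injected mice. Slc7a8 was called lower after cisplatin without saline replicate 2 (-0.18, edgeR adjusted p = 0.030). Within single strata no ratio could pass its exact permutation test. Without DCA the differences were -0.10, 3.06, 1.81, -1.59 and -1.20 for Slc3a1 to Slc7a9, Slc3a2 to Slc7a7, Slc3a2 to Slc7a8, Slc6a19 to Slc6a18 and Slc6a19 to Cltrn, and with DCA -0.36, 1.17, 0.66, -1.02 and -0.72. Whether replicate numbers pair the mice was left unsettled, since so few libraries per group cannot exclude it. Deviations of same-numbered libraries correlated from -0.10 to 0.15 over 18 pairs of libraries (median 0.003). Those of different numbers ran from -0.22 to 0.19 over 36 pairs (median -0.013), and 6 of 12 libraries correlated best with their own number. The replicate block ended no call of a transporter, and with it Slc7a8 was called for DCA against saline (-0.34, edgeR adjusted p = 0.033).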
